A study of Mus musculus with 19 samples.

Results

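Genes of MHC class II antigen presentation, 7 in number, were followed in mouse hippocampus after a prolonged seizure: Cd74, H2-Aa, H2-Ab1, H2-Eb1, H2-DMa, H2-DMb1 and Ciita. They were chosen by name, with earlier results of these data known. These 7 are all the rows, of 55416 gene rows in the deposited read table, that carry those symbols. RNA was sequenced from the right hippocampus ("R. Hippocampus" in the labels) of C57BL6 mice, 4 days after status epilepticus brought on by repeated low doses of kainate, an agonist of excitatory glutamate receptors, or 4 days after saline, both given i.p. All mice carried 1 copy of the neuronal driver Syn1Cre(+/-), the controls included, so no group lacks Cre. WT mice were EZH2(+/+), and EZH2nHom mice had homozygous deletion of EZH2, the methyltransferase of Polycomb repressive complex 2, in cells that express Synapsin1-Cre. Of the 19 libraries, 5 each came from saline-treated WT, kainate-treated WT and saline-treated EZH2nHom mice, and 4 from kainate-treated EZH2nHom mice. Ages and pooling are not given in the sources used here, and nothing states that libraries numbered as replicates came from separate animals, so p-values measure the spread between these libraries.

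MHC class II molecules are pairs of an alpha and a beta chain that display peptides from endocytosed protein to CD4 T cells. The pair is built in the endoplasmic reticulum around the invariant chain, which fills the groove and is later cut by endosomal proteases, and the peptide editor H2-DM then exchanges the last invariant chain fragment for antigen. In the brain the genes are known from border macrophages, dendritic cells and infiltrating immune cells, with little in resting microglia and more in activated microglia. Their transcription depends on Ciita, a co-activator without DNA binding of its own that is recruited by the RFX, CREB and NF-Y factors on the X and Y boxes of class II promoters.

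Total reads per library ran from 24496685 to 43948317, and levels are in CPM, read counts scaled to a common library total that was adjusted by the library's TMM factor. Ezh2 was between 9.61 and 12.9 CPM in WT saline and between 11.8 and 15.5 CPM in EZH2nHom saline libraries, and between 10.8 and 20.3 CPM and between 14.6 and 19.6 CPM after kainate. Those reads cover the whole gene in all cells, so they do not check a deletion in neurons, and the genotypes rest on the labels. Libraries also differed in measures that the labels do not give. Summed CPM of 8 choroid plexus markers ran from 15.4 to 4016, and the share of structural RNA reads from 0.0283 to 0.676%. That share went partly with the groups. It was 0.0283 to 0.0561% in WT saline, 0.0414 to 0.17% in WT kainate, 0.147 to 0.676% in EZH2nHom saline and 0.1145 to 0.672% in EZH2nHom kainate. The saline groups of the genotypes did not overlap in it. Summed CPM of 4 Y-linked genes were between 0 and 0.483 in WT saline replicates 1 and 2, WT kainate replicates 1 and 2 and EZH2nHom kainate replicate 1, and between 156 and 318 in the other libraries, all EZH2nHom saline libraries among them. Y-linked content was thus unbalanced between the groups; with its mean log2 CPM as a covariate 6 of the 7 class II genes passed for kainate in each genotype, as without it. Code prefixes of the samples occurred in no case in both genotypes, so prefix and genotype cannot be told apart. Within EZH2nHom no prefix occurred in both treatments, so prefix and kainate cannot be told apart there either. EZH2nHom kainate replicate 2 was lowest of its group for every class II gene but H2-DMb1. For Cd74, H2-Aa and H2-Eb1 it alone of that group lay within or below the saline range. It stood apart elsewhere too, with Socs3 at 109.6 CPM against 9.42 to 25.4 CPM in the other EZH2nHom kainate libraries. The kainate test in EZH2nHom is given with and without it, and for other comparisons its removal is only part of the ranges over left-out libraries.

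The class II genes were rare transcripts in the saline hippocampus. Of all reads in 19 libraries, H2-DMa had 5533, Cd74 3765, H2-Aa 2216, H2-Ab1 1971, H2-DMb1 1649, H2-Eb1 1458 and Ciita 398. Per kilobase of exon, the WT saline order was H2-DMa with a mean level of 2.28 ± 0.111 CPM per kb (SD, n = 5), Cd74 with 1.34 ± 0.457, H2-DMb1 with 0.762 ± 0.165, H2-Eb1 with 0.419 ± 0.142, H2-Ab1 with 0.27 ± 0.131, H2-Aa with 0.261 ± 0.156 and Ciita with 0.0138 ± 0.00962. H2-Ab1 and H2-Aa, neighbours in that order, did not differ beyond their spread. The EZH2nHom saline order was the same, from 2.36 ± 0.407 CPM per kb for H2-DMa (SD, n = 5) to 0.00746 ± 0.00481 for Ciita, and there Cd74 with 0.892 ± 0.133 and H2-DMb1 with 0.683 ± 0.238 did not differ beyond their spread either. After kainate Cd74 stood first in both genotypes, with 7.27 ± 9.64 CPM per kb in WT (SD, n = 5) and 5.96 ± 4.38 in EZH2nHom (SD, n = 4). The means of the 5 genes ranked next lay between 1.77 and 3.03 CPM per kb in the 2 kainate groups, and no neighbours among the first 6 differed beyond their spread. Ciita stood last in all 4 groups.

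Ciita, the master regulator of the class II genes, rose after kainate in both genotypes. WT saline replicates 1 to 5 had 0.0967, 0.214, 0.0688, 0.242 and 0.0346 CPM, and WT kainate replicates 1 to 5 had 0.256, 0.554, 2.07, 3.88 and 0.293 CPM. EZH2nHom saline replicates 1 to 5 had 0.0812, 0.124, 0, 0.0608 and 0.0892 CPM, and EZH2nHom kainate replicates 1 to 4 had 0.804, 0.22, 1.62 and 1.82 CPM. In both genotypes the lowest kainate library lay above the highest saline library, narrowly so in WT replicates 1 and 5, while WT kainate replicates 3 and 4 were far above the rest of their group. The log2 fold change was 3.32 ± 0.78 in WT (SE, adjusted p = 0.00849) and 3.96 ± 0.88 in EZH2nHom (adjusted p = 0.00281), from edgeR's quasi-likelihood test with Benjamini-Hochberg adjustment over 19234 genes. The saline side of this comparison was thin, with 22 Ciita reads in all WT saline libraries and 11 in all EZH2nHom saline libraries. No saline library reached the 0.297 CPM of the filter on low counts, against 3 kainate libraries in each genotype, so Ciita entered the test only through its kainate libraries. In bulk tissue, more cells that hold a transcript and more transcript per cell cannot be told apart, here and below.

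**Figure D1:**
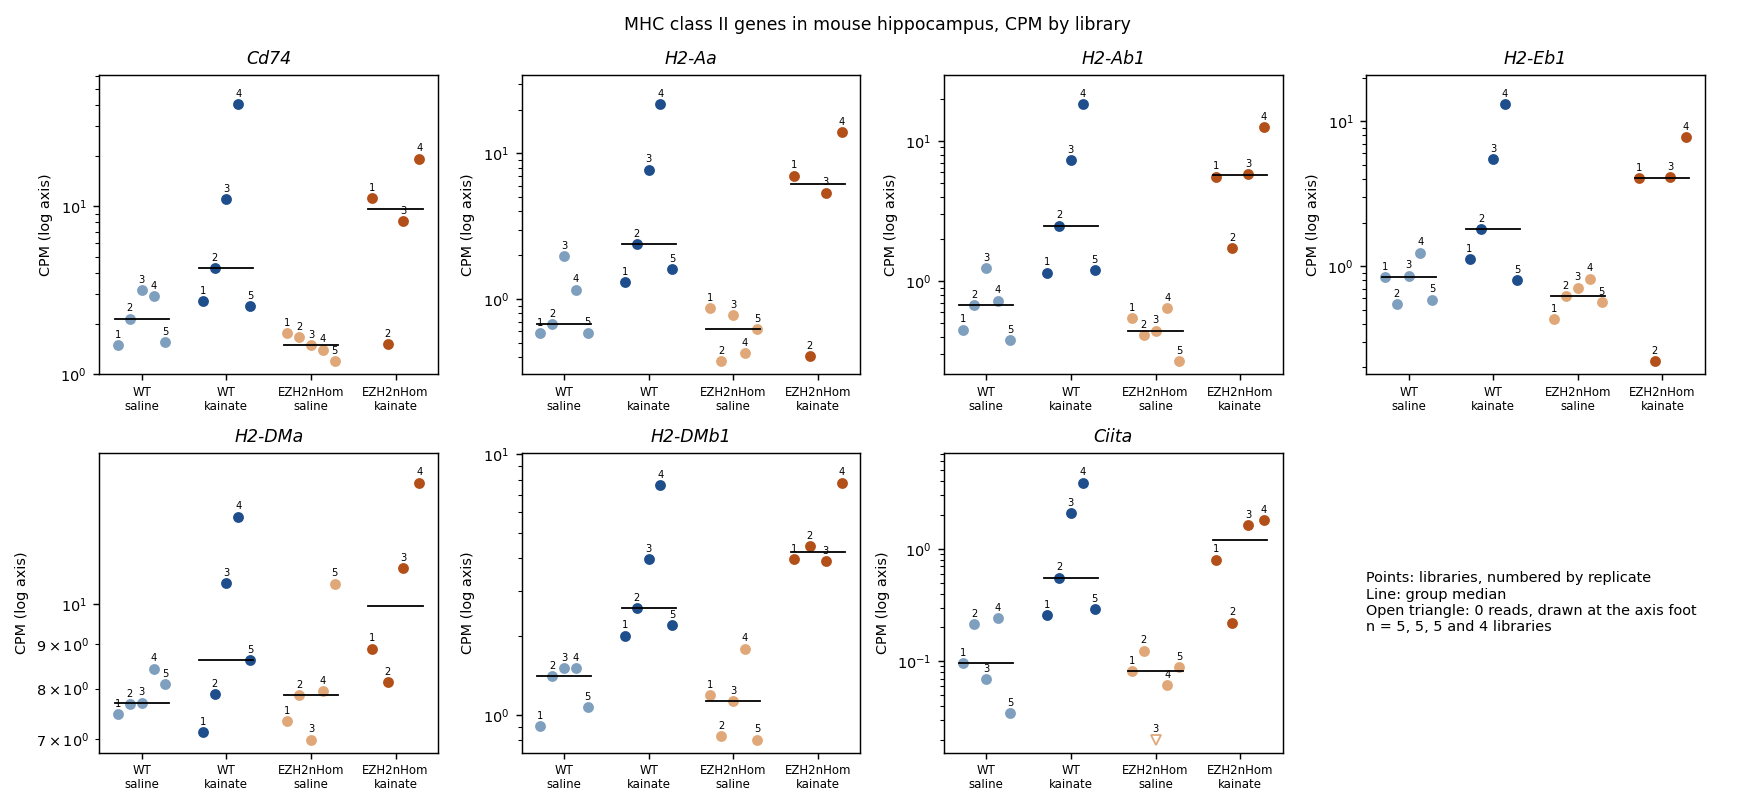
CPM of the 7 class II genes in each of 19 libraries, on log axes that differ between panels. Points are libraries numbered by replicate, lines are group medians and the open triangle is a library with 0 Ciita reads. WT kainate replicates 3 and 4 lie highest in their group in every panel, and EZH2nHom kainate replicate 2 lies within or below the saline range for Cd74, H2-Aa and H2-Eb1 but among the high libraries for H2-DMb1.

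The classical chains H2-Aa, H2-Ab1 and H2-Eb1 belong to the peptide-presenting pairs. H2-Aa is the alpha chain of I-A, H2-Ab1 its beta chain and H2-Eb1 the beta chain of I-E. The alpha chain of I-E, H2-Ea, had 0 reads in every library, so no transcript for the partner of H2-Eb1 was seen. H2-Aa, H2-Ab1 and H2-Eb1 all rose after kainate in both genotypes. H2-Aa was at 0.58, 0.673, 1.96, 1.16 and 0.588 CPM in WT saline replicates 1 to 5 and at 1.31, 2.38, 7.73, 21.7 and 1.6 CPM in WT kainate replicates 1 to 5. It was at 0.867, 0.373, 0.77, 0.426 and 0.624 CPM in EZH2nHom saline replicates 1 to 5 and at 7.03, 0.404, 5.38 and 14.0 CPM in EZH2nHom kainate replicates 1 to 4. WT groups overlapped through kainate replicates 1 and 5 and saline replicate 3, and EZH2nHom groups overlapped only through kainate replicate 2. The log2 change of H2-Aa was 2.80 ± 0.79 in WT (SE, adjusted p = 0.0275, edgeR) and 3.43 ± 0.85 in EZH2nHom (adjusted p = 0.00603).

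H2-Ab1 was at 0.451, 0.673, 1.24, 0.727 and 0.38 CPM in WT saline replicates 1 to 5, and at 1.15, 2.49, 7.29, 18.3 and 1.2 CPM in WT kainate replicates 1 to 5. EZH2nHom saline replicates 1 to 5 had 0.542, 0.414, 0.444, 0.639 and 0.268 CPM of H2-Ab1, and EZH2nHom kainate replicates 1 to 4 had 5.58, 1.73, 5.8 and 12.5 CPM. Here the EZH2nHom groups did not overlap, since kainate replicate 2 was lowest of its group and still above every saline library, and the WT groups overlapped because WT saline replicate 3 exceeded WT kainate replicates 1 and 5. The log2 change was 3.12 ± 0.70 in WT (SE, adjusted p = 0.00635, edgeR) and 3.78 ± 0.75 in EZH2nHom (adjusted p = 0.00119).

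H2-Eb1 was at 0.838, 0.551, 0.86, 1.24 and 0.588 CPM in WT saline replicates 1 to 5 and at 1.12, 1.8, 5.52, 13.1 and 0.799 CPM in WT kainate replicates 1 to 5. EZH2nHom saline replicates 1 to 5 had 0.433, 0.621, 0.711, 0.821 and 0.565 CPM of H2-Eb1, and EZH2nHom kainate replicates 1 to 4 had 4.04, 0.22, 4.11 and 7.74 CPM. EZH2nHom kainate replicate 2 lay below every saline library of its genotype, and WT kainate replicates 1 and 5 lay within the saline range. The log2 change was 2.43 ± 0.73 in WT (SE, adjusted p = 0.0355, edgeR) and 2.68 ± 0.76 in EZH2nHom (adjusted p = 0.0149). Without EZH2nHom kainate replicate 4 the EZH2nHom change of H2-Eb1 was 2.16 and no longer passed (adjusted p = 0.0601).

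Cd74 encodes the invariant chain, which assembles and escorts all class II pairs. It was at 1.48, 2.14, 3.17, 2.91 and 1.56 CPM in WT saline replicates 1 to 5 and at 2.72, 4.26, 11.03, 40.5 and 2.53 CPM in WT kainate replicates 1 to 5. It was at 1.76, 1.66, 1.48, 1.4 and 1.19 CPM in EZH2nHom saline replicates 1 to 5 and at 11.1, 1.5, 8.13 and 19.3 CPM in EZH2nHom kainate replicates 1 to 4. WT kainate replicates 1 and 5 lay within the WT saline range, WT kainate replicate 4 was 16.0 times the lowest of its group, and EZH2nHom kainate replicate 2 lay within the saline range of its genotype. Cd74 rose by 2.43 ± 0.70 log2 units in WT (SE, adjusted p = 0.0292, edgeR) and by 2.74 ± 0.73 in EZH2nHom (adjusted p = 0.0102).

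H2-DMa and H2-DMb1 are the alpha and beta chains of the peptide editor, and they parted from each other. H2-DMb1 was at 0.902, 1.41, 1.51, 1.51 and 1.07 CPM in WT saline replicates 1 to 5 and at 2.02, 2.57, 3.96, 7.61 and 2.21 CPM in WT kainate replicates 1 to 5. It was at 1.19, 0.828, 1.13, 1.8 and 0.803 CPM in EZH2nHom saline replicates 1 to 5 and at 3.97, 4.44, 3.9 and 7.79 CPM in EZH2nHom kainate replicates 1 to 4. Neither genotype's groups overlapped, and EZH2nHom kainate replicate 2, within or below the saline range for Cd74, H2-Aa and H2-Eb1, was second highest of its group for H2-DMb1. H2-DMb1 rose by 1.51 ± 0.34 log2 units in WT (SE, adjusted p = 0.00664, edgeR) and by 2.12 ± 0.36 in EZH2nHom (adjusted p = 0.000299).

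H2-DMa did not pass the test in either genotype. It was at 7.48, 7.68, 7.71, 8.43 and 8.09 CPM in WT saline replicates 1 to 5 and at 7.14, 7.89, 10.6, 12.6 and 8.63 CPM in WT kainate replicates 1 to 5. It was at 7.34, 7.87, 6.99, 7.94 and 10.6 CPM in EZH2nHom saline replicates 1 to 5 and at 8.89, 8.15, 10.99 and 13.8 CPM in EZH2nHom kainate replicates 1 to 4. The groups overlapped in both genotypes, although WT kainate replicates 3, 4 and 5 and EZH2nHom kainate replicates 3 and 4 lay above all saline libraries of their genotype. The log2 change of H2-DMa was 0.25 ± 0.16 in WT (SE, adjusted p = 0.386, edgeR) and 0.36 ± 0.17 in EZH2nHom (adjusted p = 0.131), and without EZH2nHom kainate replicate 2 the latter was 0.46 and passed (adjusted p = 0.0497).

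For 3 of these genes the count is uncertain. In GENCODE M21, H2-DMa overlaps Brd2, a broadly expressed bromodomain gene on the opposite strand with 80509 reads, and 8.43% of the 50-base words of H2-DMa also lie in Brd2. H2-DMb1 shares 22.7% of its 50-base words with its near-identical copy H2-DMb2, and Ciita shares 1.46% with Dexi on the opposite strand. The strand setting and the handling of shared reads are not given in the sources used here, so reads of H2-DMa and Brd2 may have been counted together. Brd2 had a log2 change after kainate of -0.03 in WT (adjusted p = 0.921, edgeR) and 0.08 in EZH2nHom (adjusted p = 0.64). How far this set the small change of H2-DMa was not tested.

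The promoters were then read for the boxes that class II genes are known to share. RefSeq promoter sequences (GRCm38.p6, searched over the 250 bases before the gene start) were on hand for 4 of the 7 genes, H2-Aa, H2-Eb1, H2-DMa and H2-DMb1. Each was searched on both strands for the X box core GNAAC, where N is any base, followed 15 to 35 bases later on the same strand by the reversed CCAAT box ATTGG, the core of the Y box. The pair was present in H2-Aa, H2-Eb1 and H2-DMb1, which rose, and absent from both H2-DMa promoters in the table, and 2.98% of 32851 promoters held it. The stricter core AGNAAC, which is contained in GNAAC, gave a pair in H2-Eb1 and H2-DMb1 but not in H2-Aa, and in 0.941% of all promoters, and GNAAC was adopted after the H2-Aa sequence had been seen. The 3 windows below, with GNAAC and ATTGG in capitals, have 27 or 28 bases between the motifs. Where a promoter held several pairs, the pair with a spacing nearest 27 bases was shown, so the choice itself favoured a shared spacing. The H2-DMb2 window is added because it is the near-identical copy of H2-DMb1, and its ATTGG is in capitals.
H2-Aa, chr17:34287855-34287916, minus strand: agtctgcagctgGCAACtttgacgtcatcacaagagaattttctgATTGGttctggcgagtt
H2-Eb1, chr17:34305764-34305824, plus strand: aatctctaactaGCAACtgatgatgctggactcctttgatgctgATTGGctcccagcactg
H2-DMb1, chr17:34153085-34153146, plus strand: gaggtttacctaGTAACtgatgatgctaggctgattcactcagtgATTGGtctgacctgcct
H2-DMb2, chr17:34145114-34145175, plus strand: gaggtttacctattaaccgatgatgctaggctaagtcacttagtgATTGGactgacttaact

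The GNAAC of H2-DMb1 begins 94 bases and its ATTGG 61 bases before the gene start, while the ATTGG of H2-DMb2 begins 90 bases before its start with no GNAAC at the matching place. For comparison with these, the 100 bases shown for H2-DMa come from its first promoter in the table, which held GNAAC but no ATTGG; its second promoter, not shown, held ATTGG but no GNAAC.
H2-DMa, chr17:34122732-34122831, plus strand: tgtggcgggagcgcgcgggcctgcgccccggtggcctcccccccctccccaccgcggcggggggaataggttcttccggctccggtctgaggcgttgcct
Single motifs were common, with ATTGG in 33.8%, AGNAAC in 42.3% and GNAAC in 79.6% of all promoters. The interferon-gamma activated site TTCNNNGAA was in 7.02% of all promoters and in none of the 5 promoters of these 4 genes. A match is a description of letters in this window, and binding was not measured.

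In all, 6 of the 7 genes rose in WT and 6 of 7 in EZH2nHom, against 9.47% and 14.3% of 19234 genes tested that passed as higher. None of the 7 fell, against 2.57% and 11.8% of all genes. Since the 7 were chosen with earlier results of these data known, these shares are a description and not a test of the set. The median log2 change of the 7 genes was 2.43 in WT and 2.74 in EZH2nHom, and the median over all genes tested was -0.02 in both. Ciita and H2-DMb1 had no overlap between the groups in either genotype, and H2-Ab1 had none in EZH2nHom, where 9.78% of genes in WT and 9.93% in EZH2nHom were higher with no overlap. Ciita had entered the test only through kainate libraries and had to differ, so it is set aside here: of the other 6 genes, 5 rose in each genotype, with a median log2 change of 2.43 in WT and 2.71 in EZH2nHom. DESeq2's Wald test also passed 6 of 7 in each genotype.

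**Figure D2:**
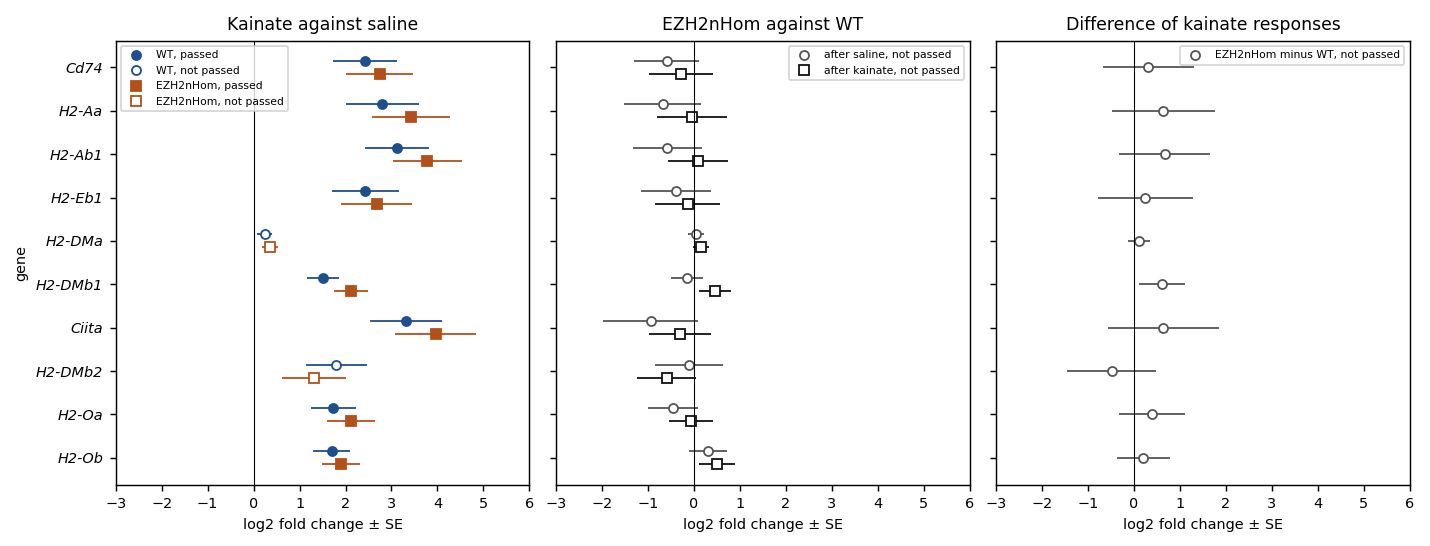
Log2 fold changes ± SE from edgeR for the 7 genes and for H2-DMb2, H2-Oa and H2-Ob, for kainate against saline in each genotype, for EZH2nHom against WT after each treatment, and for the difference of the kainate responses. Filled symbols passed at an adjusted p under 0.05. The kainate changes of Cd74, H2-Aa, H2-Ab1, H2-Eb1, H2-DMb1 and Ciita lie between 1.51 and 3.96, and all genotype comparisons have open symbols.

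In WT the count changed when single libraries were left out. Without WT kainate replicate 4 the change of Cd74 was 1.18 (adjusted p = 0.204, edgeR), of H2-Aa 1.70 (adjusted p = 0.156) and of H2-Eb1 1.48 (adjusted p = 0.192), and 3 genes passed. The same count of 3 passed without WT kainate replicate 3, and without any of WT saline replicates 1, 2 and 5. WT kainate replicates 3 and 4 were also left out together, but they were picked for their high class II levels, so the changes had to fall and the outcome supports nothing. None of the 7 then passed for kainate in WT, and 3 passed as higher in EZH2nHom than in WT after kainate, Cd74 by 1.64, H2-Ab1 by 1.97 and H2-DMb1 by 1.13. Deviations of same-numbered WT libraries were positively correlated, which does not establish that they are pairs. With the replicate number as a block 4 genes passed, Cd74 with a change of 1.66 (adjusted p = 0.0804, edgeR) and H2-Eb1 with 1.84 (adjusted p = 0.0795) being lost. When the fit took structural RNA content as a covariate, 0 of the 7 passed in WT and all 7 in EZH2nHom. All WT kainate libraries but replicate 1 exceeded every WT saline library in that content, so covariate and kainate are partly confounded in WT. In EZH2nHom, 5 to 7 genes passed whichever library was left out. Without EZH2nHom kainate replicate 2 all 7 passed, with changes of 3.10 for Cd74, 3.82 for H2-Aa, 4.09 for H2-Ab1, 3.06 for H2-Eb1 and 4.29 for Ciita. Leaving out the 7 libraries above 1000 CPM of choroid plexus markers gave larger changes for all 7 genes in WT, such as 3.81 for H2-Ab1 and 3.65 for Ciita, but with 3 against 3 WT libraries none of the 7 passed, and H2-DMb1 alone did with 2 against 4 EZH2nHom libraries.

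**Figure D3:**
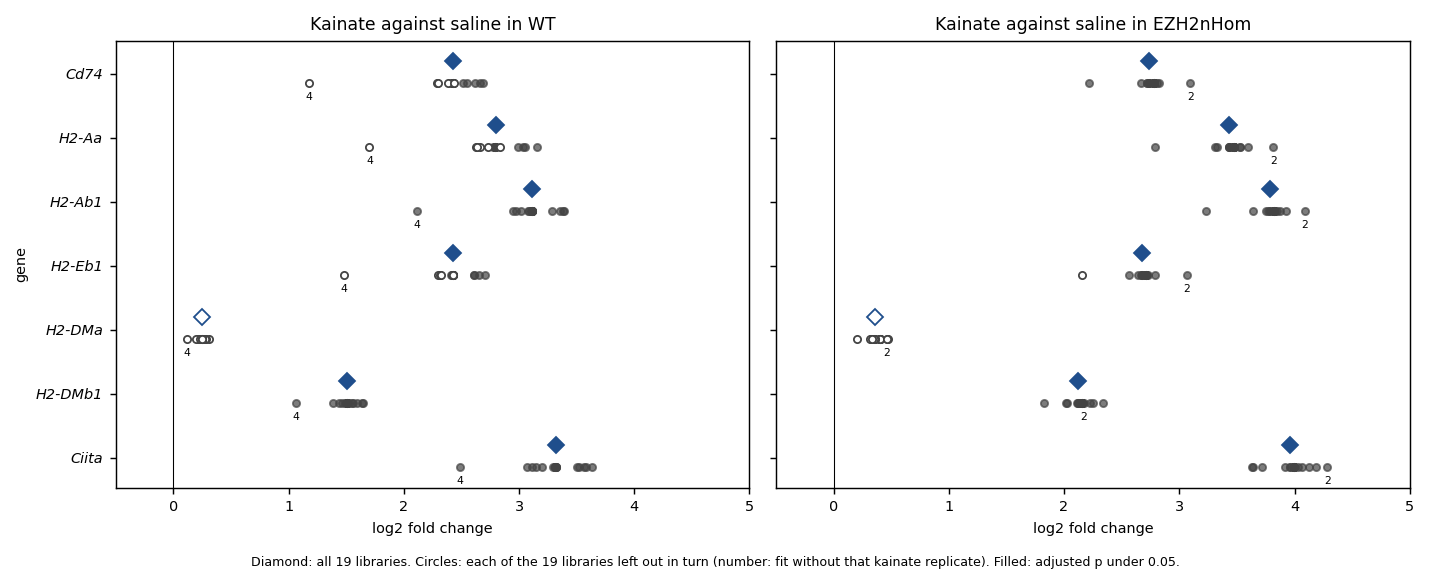
Log2 fold change of the 7 genes for kainate against saline in WT (left) and EZH2nHom (right), with all 19 libraries (diamonds) and with each library left out in turn (circles); filled symbols passed at an adjusted p under 0.05. In WT the fit without kainate replicate 4 lies lowest for all 7 genes, from 0.12 for H2-DMa to 2.49 for Ciita.

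Within the 2 code prefixes found in both WT arms, the kainate difference varied. In prefix 070721, with 1 library a side, the log2 CPM difference was -0.08 for Cd74, 0.13 for H2-Aa, 0.43 for H2-Ab1, -0.10 for H2-Eb1, 0.33 for H2-DMb1 and 0.03 for Ciita. In prefix 081321, with 1 saline library and 3 kainate libraries, it was 2.31, 2.78, 2.70, 2.45, 1.33 and 1.68 for the same genes. A fit to these 6 libraries with the prefix as a block called 0 genes of all tested, and what a prefix stands for is not given in the sources used here.

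The kainate libraries ranked alike for most of the genes, with EZH2nHom kainate replicate 2 as the exception. WT kainate replicate 4 was highest of the 9 kainate libraries for 5 of the 7 genes and within the top 2 for all 7, and EZH2nHom kainate replicate 4 was within the top 2 for 6. WT kainate replicate 1 was lowest for 3 genes and EZH2nHom kainate replicate 2 for 4, although it had rank 3 of 9 for H2-DMb1. Relative to the saline mean of its genotype, WT kainate replicate 4 held 29.6 times the Ciita level, 26.3 times the H2-Ab1 level, 18.0 times the Cd74 level and 1.6 times the H2-DMa level. WT kainate replicate 1 held 1.95, 1.66, 1.21 and 0.906 times those levels. EZH2nHom kainate replicate 2 held 3.74 times the H2-Ab1 level, 3.87 times the H2-DMb1 level and 3.1 times the Ciita level, but 0.66 times the H2-Aa level and 0.349 times the H2-Eb1 level.

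**Figure D4:**
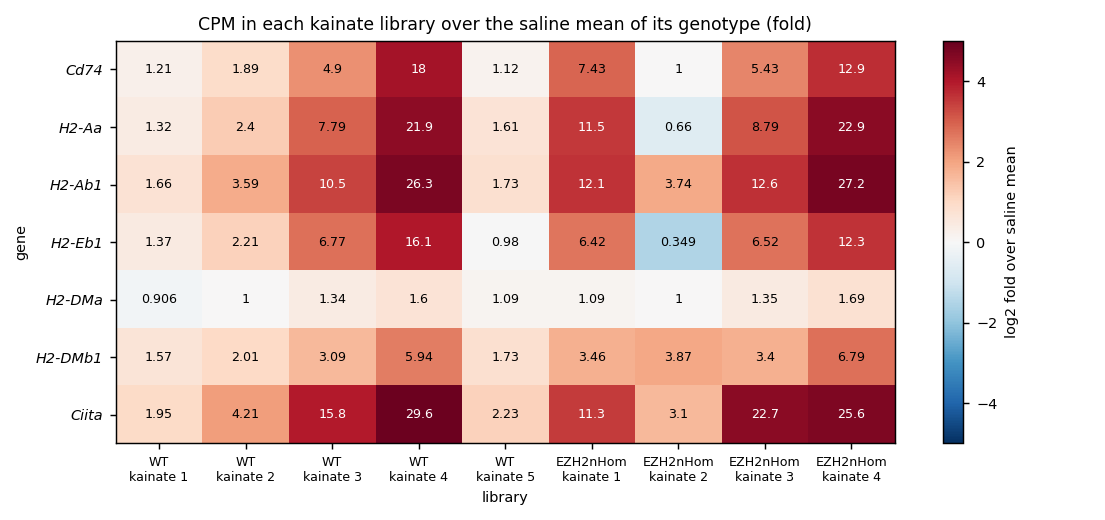
CPM of each class II gene in each of the 9 kainate libraries, divided by the mean CPM of the saline libraries of the same genotype; colour gives the log2 of that fold and the numbers give the fold. WT kainate replicates 3 and 4 and EZH2nHom kainate replicates 1, 3 and 4 are high for all genes but H2-DMa, and EZH2nHom kainate replicate 2 is high for H2-Ab1, H2-DMb1 and Ciita and not for H2-Aa, H2-Eb1 or Cd74.

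No class II gene differed between the genotypes in the edgeR test. After saline 0 of 7 passed, against 8.33% of all genes higher and 5.16% lower in EZH2nHom, and 0 of 7 had an unadjusted p under 0.05. The log2 differences ran from -0.94 ± 1.03 for Ciita (SE) to 0.05 ± 0.16 for H2-DMa. After kainate 0 of 7 passed, against 4.56% higher and 3.04% lower, and the differences ran from -0.30 ± 0.68 for Ciita to 0.46 ± 0.35 for H2-DMb1. With errors of this size the test does not show that the genotypes had equal levels. When only the saline groups were fitted, Cd74 was lower in EZH2nHom by -0.62 (adjusted p = 0.0495), its saline means being 2.25 ± 0.768 CPM in WT and 1.5 ± 0.223 CPM in EZH2nHom (SD, n = 5 each). Without WT kainate replicate 4, H2-DMb1 was higher in EZH2nHom after kainate by 0.91 (adjusted p = 0.0495).

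The kainate responses of the genotypes were not shown to differ. The difference of responses, EZH2nHom minus WT, was 0.31 ± 0.98 for Cd74 (SE), 0.64 ± 1.12 for H2-Aa, 0.67 ± 0.99 for H2-Ab1, 0.25 ± 1.03 for H2-Eb1, 0.11 ± 0.24 for H2-DMa, 0.61 ± 0.49 for H2-DMb1 and 0.64 ± 1.20 for Ciita. Of the 7, 0 passed in edgeR, 0 had an unadjusted p under 0.05 and 0 passed in DESeq2. Over all 19234 genes 0.0% passed in either direction in edgeR and 12 genes in DESeq2.

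The other class II genes of the region include the inhibitory editor H2-O, whose chains are H2-Oa and H2-Ob and which is best known from B cells. H2-Oa rose by 1.73 ± 0.49 in WT (SE, adjusted p = 0.0254, edgeR) and 2.12 ± 0.52 in EZH2nHom (adjusted p = 0.00562), from 0.365 ± 0.183 CPM (SD, n = 5) to 1.25 ± 0.783 in WT. H2-Ob rose by 1.70 ± 0.41 in WT (adjusted p = 0.00903, edgeR) and 1.90 ± 0.41 in EZH2nHom (adjusted p = 0.00215). In WT neither gene's groups overlapped, and in EZH2nHom kainate replicate 2 lay within the saline range for H2-Oa, with 0.257 CPM, and below it for H2-Ob, with 0.44 CPM. H2-Oa shares 15.5% of its 50-base words with BC051537, so part of its count is uncertain. Both promoters held the GNAAC and ATTGG pair, as did that of H2-Eb2. H2-DMb2, whose promoter held no pair, had changes of 1.80 (adjusted p = 0.0848, edgeR) and 1.31 (adjusted p = 0.175). H2-Eb2 had 24 reads in all libraries and was not tested, and H2-Ea, the alpha chain of I-E that is known to be silent in C57BL/6 mice, had 0 reads in every library.

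Of 11 class II transcription factors, 5 rose in WT, and in EZH2nHom 4 rose and 1 fell. Among those that rose in WT were Spi1, the macrophage lineage factor PU.1, with a change of 2.14 (adjusted p = 0.000201, edgeR), Irf8 with 2.21, Irf1 with 0.77 and Nfya with 0.63. The subunits of the RFX complex that holds the X box did not pass, with changes of -0.03 for Rfx5, -0.23 for Rfxap and 0.13 for Rfxank in WT. Spi1 did not follow the classical chains in EZH2nHom kainate replicate 2, where it was at 11.01 CPM, against 7.86, 6.21 and 13.6 CPM in the other 3 libraries of that group and at most 1.93 CPM after saline. Creb1 fell by 0.38 in EZH2nHom (adjusted p = 0.0207).

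Of 10 genes listed for invariant chain cutting and peptide generation, 9 rose in each genotype, with a median log2 change of 1.76 in WT and 2.18 in EZH2nHom. One of them, Cst3, encodes cystatin C, an inhibitor of cathepsins, and rose by 0.66 in both genotypes; without it 8 of 9 rose in each. Ctss, the cathepsin that cuts the invariant chain in antigen-presenting cells, rose by 2.14 in WT (adjusted p = 2.65e-05, edgeR) and 2.79 in EZH2nHom (adjusted p = 1.16e-06). Ifi30, a lysosomal thiol reductase, rose by 3.31 and 4.11, Ctsh by 2.30 and 2.69, Ctsd by 2.17 and 2.57 and Ctsb by 1.21 and 1.33. Sppl2a, a protease that removes the invariant chain stub from membranes, did not pass, with changes of 0.30 and 0.29. Ctss was at 302 CPM and Ifi30 at 32.6 CPM in EZH2nHom kainate replicate 2, well above the highest saline values of that genotype, 66.2 and 1.96 CPM.

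Of 7 co-stimulation and turnover genes tested, 3 rose in WT, and in EZH2nHom 4 rose and 1 fell. Cd86, a ligand of CD28 on T cells, rose by 1.90 in WT (adjusted p = 0.000159, edgeR) and 2.25 in EZH2nHom (adjusted p = 1.76e-05), and Cd274, which encodes PD-L1, rose by 1.21 and 1.91. Icosl rose by 0.48 and 0.70, and Cd80 had 1.03 in WT (adjusted p = 0.0802) and rose by 1.20 in EZH2nHom (adjusted p = 0.0233). Marchf1, a ubiquitin ligase that removes class II from the cell surface, had -0.25 in WT (adjusted p = 0.117) and fell by 0.44 in EZH2nHom (adjusted p = 0.00479).

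Of 9 interferon-gamma signalling genes tested, 5 rose in WT and 6 in EZH2nHom, while Ifng itself had 7 reads in all libraries and was not tested. Gbp2 rose by 2.92 and 4.02, Irgm1 by 2.38 and 3.28, Iigp1 by 2.08 and 3.37 and the receptor Ifngr1 by 0.85 and 1.16. Class I genes, which present peptides to CD8 T cells, rose in 8 of 9 cases in WT and 9 of 9 in EZH2nHom, among them H2-D1 by 2.46 and 3.25 and B2m by 1.97 and 2.36. Nlrc5, the class I counterpart of Ciita, rose by 3.195 in WT (adjusted p = 0.000719, edgeR) and 4.46 in EZH2nHom (adjusted p = 4.01e-05). In EZH2nHom kainate replicate 2, Nlrc5 was at 3.38 CPM and H2-D1 at 76.0 CPM, above all saline libraries, at most 0.621 and 17.9 CPM in that genotype. Between the genotypes after kainate, B2m was higher in EZH2nHom by 1.16 (adjusted p = 0.022) and Psmb8 by 1.21 (adjusted p = 0.0462), the class I genes of 9 that passed. In the same comparison 2 of 11 class II transcription factors, 2 of 9 interferon-gamma signalling genes and 2 of 6 structural RNA genes were higher. All 5 red blood cell genes were lower in EZH2nHom, with a median log2 difference of -2.02. Over all genes 4.56% were higher and 3.04% lower. B2m was already at 84.1 ± 8.72 CPM in EZH2nHom and 49.2 ± 4.97 CPM in WT after saline (SD, n = 5 each) with no overlap, a difference of 0.77 that did not pass (adjusted p = 0.072, edgeR).

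Markers of several cell types moved with the class II genes, and their part in the result was not tested. All 10 microglia markers rose in WT and 9 of 10 in EZH2nHom, among them Csf1r, the receptor on which microglia depend for survival, by 1.56 and 1.97, with summed levels of 404 to 455 CPM in WT saline, 726 to 2124 in WT kainate, 338 to 390 in EZH2nHom saline and 804 to 1911 CPM in EZH2nHom kainate. Over the 9 kainate libraries the summed CPM of all 7 class II genes, H2-DMa included, ranked the libraries as the microglia markers did, with equal ranks in all 9. Without H2-DMa this did not hold at the low end, where EZH2nHom kainate replicate 2, with 8.51 CPM, lay just under WT kainate replicate 1, with 8.57 CPM. Summed over the 6 class II genes other than H2-DMa, class II CPM were 0.955 to 2.1% of the microglia marker CPM in WT saline and 0.908 to 1.52% in EZH2nHom saline. In WT kainate that share was 1.01 to 4.95% with a median of 1.54%, and in EZH2nHom kainate 1.06 to 3.31% with a median of 2.52%, so the lowest kainate libraries had shares within the saline range.

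**Figure D5:**
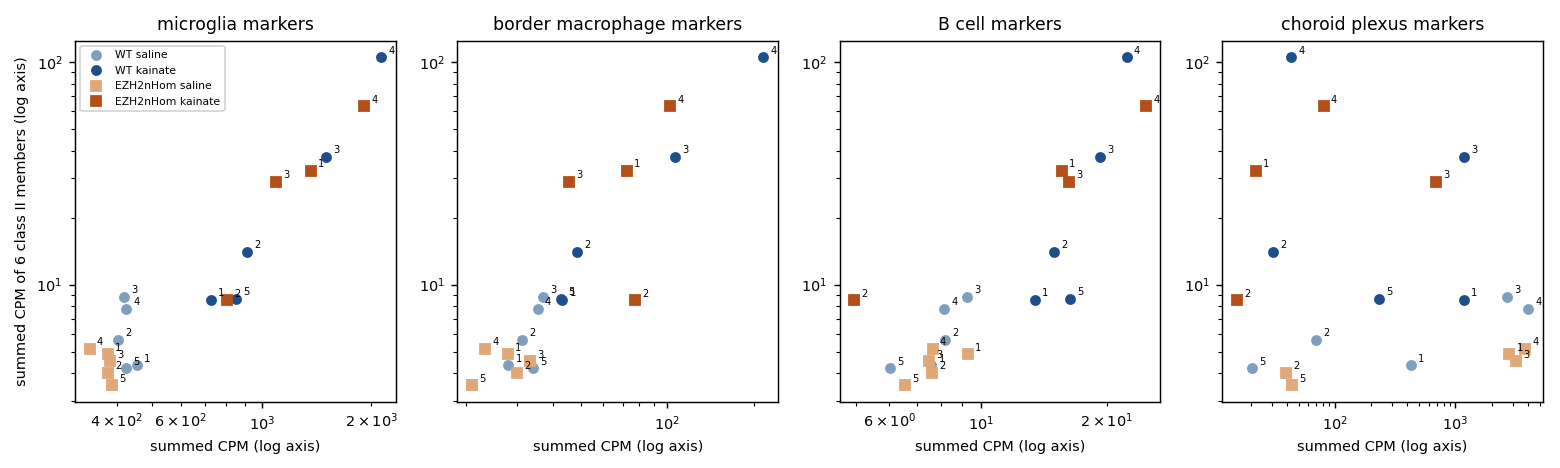
Summed CPM of the 6 class II genes other than H2-DMa against summed CPM of microglia, border macrophage, B cell and choroid plexus markers in each of 19 libraries, on log axes, with replicate numbers beside the points. Among the kainate libraries, the class II sum is lowest in those of 726 to 852 CPM of microglia markers. It is highest in the library of 2124 CPM, WT kainate replicate 4. Along choroid plexus markers the kainate libraries follow no such order.

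The monocyte list was dominated by Vcan and Fn1, matrix genes that other cells also express, with 38986 and 46863 reads. Of 8 monocyte markers tested, 5 rose in WT and 8 in EZH2nHom, with summed levels of 90.1 to 109 CPM in WT saline, 113 to 478 in WT kainate, 69.5 to 96.8 in EZH2nHom saline and 130 to 258 CPM in EZH2nHom kainate. Without Vcan and Fn1, which made up 84.5 to 99.8% of these sums, the other 7 genes summed to 0.761 to 1.82 CPM in WT saline, 1.31 to 36.1 in WT kainate, 0.207 to 1.25 in EZH2nHom saline and 4.69 to 31.6 CPM in EZH2nHom kainate. Ccr2, the chemokine receptor of infiltrating monocytes, was picked out after its values had been seen. It was at 0.768, 1.16, 6.53, 13.02 and 0.506 CPM in WT kainate replicates 1 to 5 and at 4.32, 0, 1.87 and 8.85 CPM in EZH2nHom kainate replicates 1 to 4. Its libraries were thus high and low much as for Cd74, including the low EZH2nHom kainate replicate 2, where microglia markers summed to 804 CPM, above every saline library. Ly6c2 was at 0.128, 0.166, 2.18, 3.49 and 0.16 CPM in WT kainate replicates 1 to 5 and at 2.59, 0.11, 0.924 and 8.82 CPM in EZH2nHom kainate replicates 1 to 4. Ccr2 rose by 2.94 in WT (adjusted p = 0.0481, edgeR) and 3.56 in EZH2nHom (adjusted p = 0.0146).

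Border macrophage markers rose in 3 of 10 cases in each genotype, namely Siglec1, Stab1 and Ms4a7, and summed to 28.1 to 36.9 CPM in WT saline, 42.7 to 215 in WT kainate, 21.0 to 33.4 in EZH2nHom saline and 45.6 to 102 CPM in EZH2nHom kainate. Mrc1, Lyve1 and Pf4, which define these cells, did not pass, with WT changes of 0.09, -0.36 and 0.08. Stab1 had the most reads of the border macrophage list, 19551, and made up 158.5 of the 215 CPM in WT kainate replicate 4. Of 6 dendritic cell markers tested, Itgax rose by 3.46 in WT and 3.77 in EZH2nHom, and Flt3 fell by 0.53 in EZH2nHom (adjusted p = 0.0281, edgeR). Summed dendritic cell levels were 82.2 to 95.2 CPM in WT saline, 83.7 to 104 in WT kainate, 78.1 to 110 in EZH2nHom saline and 71.9 to 119 CPM in EZH2nHom kainate. Fscn1, Cd24a and Zbtb46 had the most reads of this list, 33959, 12164 and 5353. The sums mostly follow those genes and do not give a dendritic cell level. The defining markers Xcr1 and Clec9a had 13 and 46 reads in all libraries.

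Most lymphocyte markers had few reads, Ighm being the exception. Of 5 T cell markers tested, Trbc2 and Cd5 rose in both genotypes, and the defining Cd3d, Cd3e and Cd3g had 21, 10 and 30 reads in all libraries. T cell sums were 1.69 to 2.35 CPM in WT saline, 2.24 to 3.96 in WT kainate, 1.27 to 2.32 in EZH2nHom saline and 2.83 to 4.89 CPM in EZH2nHom kainate. Of 4 B cell markers tested, 2 rose in WT (Cd22 and Cd79b) and 3 in EZH2nHom, where Pax5 joined them, and the defining Ms4a1 and Cd79a had 28 and 49 reads in all libraries. B cell sums were 6.02 to 9.26 CPM in WT saline, 13.4 to 22.3 in WT kainate, 6.57 to 9.29 in EZH2nHom saline and 4.95 to 24.8 CPM in EZH2nHom kainate. Ighm, the heavy chain of IgM, had 5909 reads in all libraries and made up 28.2 to 93.3% of these sums. It did not pass, with 0.93 in WT (adjusted p = 0.0972, edgeR) and 0.54 in EZH2nHom (adjusted p = 0.301), and was lowest, at 1.39 CPM, in EZH2nHom kainate replicate 2. The other 8 B cell genes summed to 0.62 to 0.968 CPM in WT saline, 2.05 to 7.73 in WT kainate, 0.504 to 0.981 in EZH2nHom saline and 3.56 to 8.0 CPM in EZH2nHom kainate. Neither Cd22 nor Itgax is confined to the cell type whose list it stands in, since both are known from activated microglia.

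Choroid plexus markers passed in 0 of 8 cases in each genotype in edgeR. Unadjusted p-values under 0.05 were found for 0 in WT and 5 in EZH2nHom, and DESeq2 passed 0 and 5. Their sums were 20.6 to 4016 CPM in WT saline, 30.7 to 1176 in WT kainate, 39.2 to 3774 in EZH2nHom saline and 15.4 to 694 CPM in EZH2nHom kainate. WT saline replicates 3 and 4, with 2688 and 4016 CPM of these markers, had the highest Cd74 and H2-Aa of the WT saline group. In EZH2nHom saline, replicates 1, 3 and 4 had 2799, 3201 and 3774 CPM of these markers and Cd74 of 1.76, 1.48 and 1.4 CPM, against 1.66 and 1.19 CPM in replicates 2 and 5. Red blood cell genes rose in 5 of 5 cases in WT, with sums of 258 to 770 CPM after saline and 552 to 1974 CPM after kainate, while in EZH2nHom 0 of 5 passed, with sums of 159 to 400 and 103 to 435 CPM. There, 0 of the 5 had an unadjusted p under 0.05 in edgeR and DESeq2 passed 0. Endothelial markers passed in 0 of 6 in each genotype in edgeR and DESeq2, with unadjusted p under 0.05 for 1 in WT and 0 in EZH2nHom, and summed to 53.4 to 106 CPM over all 19 libraries.

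The genes with the most similar profile over the 19 libraries were sought among 15251 genes of at least 1 CPM on average. Likeness was the root mean square difference in log2 CPM, after centring, from the mean profile of the 7 class II genes. Pycard, the inflammasome adaptor ASC, was nearest at 0.374, followed by Tmem273 at 0.382, Chil1 at 0.4, Uba7, the activating enzyme of ISG15, at 0.4, Gal3st4 at 0.417 and Tmem106a at 0.42, against a median of 1.37 over the genes compared. The class II genes themselves lay at 0.263 for Cd74, 0.528 for H2-Eb1, 0.551 for H2-Ab1, 0.577 for H2-Aa, 0.611 for H2-DMb1, 0.912 for Ciita and 1.12 for H2-DMa. H2-DMa was therefore the member farthest from the shared profile, and Cd74 the nearest. These points share libraries and depth, and they describe likeness of levels only. Pycard rose by 2.20 in WT (adjusted p = 0.00152, edgeR) and 2.36 in EZH2nHom (adjusted p = 0.00054).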

How the data were processed

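Per the labels' protocols, libraries were made from total RNA of the right hippocampus after removal of ribosomal RNA. The authors deposited a table of read counts, whole numbers, with 55416 Ensembl gene rows and 19 library columns, and a second deposited table of normalised signal, counts divided by 1 size factor per library per the file headers, was used only for gene names. The submitters' processing notes name mm39, DESeq2 and DESeq; aligner, counting program, annotation release and strand setting are not given in the sources used here. Title replicate numbers are used. The 7 genes and all gene lists were chosen with earlier results of these data known. The named genes were the 7, Ezh2, 5 further class II genes, up to 4 genes with the smallest WT kainate p in each list, and the 6 genes of most similar profile; others named were chosen after their values were seen.

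The test of the counts used edgeR 4.0.16 under R 4.3.3 (filterByExpr by group, TMM factors, robust quasi-likelihood fit, 1 mean per group, all 19 libraries), which tested 19234 genes in 5 comparisons. All p-values are two-sided, Benjamini-Hochberg adjusted over the 19234 genes, and pass under 0.05. The fit was tested on simulated data. Folds over saline means are ratios of CPM, likeness used log2 of CPM with a prior count of 0.5, and lengths are union exon lengths of GENCODE M21, whose build differs from mm39. Counting error limits genes with few reads: a count of 0 allows up to 3 reads.

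Same-numbered WT saline and kainate libraries deviated together (correlations of 0.249 to 0.594 in 5 pairs over 11754 genes of at least 5 CPM, and of 0.072 to 0.297 over all genes tested), so blocked values stand beside WT results they change. The pairing comes from the data, not the labels, and is not established. WT saline replicates 1 and 4 correlated best with a WT kainate library of another number. Over the same 11754 genes, same-numbered libraries of the 2 genotypes had correlations of 0.075 to 0.546 after saline and -0.054 to 0.528 after kainate. EZH2nHom pairs had correlations of -0.035 to 0.197 and were not taken as paired. Alternatives were DESeq2 1.42.0 size factors and Wald test, other filters, only the groups compared, replicate block, Y-linked and structural RNA covariates, shared code prefixes, a threshold of 0.01, and leaving out each library. Leaving out WT kainate replicates 3 and 4, and the libraries above 1000 CPM of choroid plexus markers, were added after seeing the data.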

Additional observations from a re-analysis of the deposited data

Results flagged for a closer look

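Within each of the 4 groups, the levels of the 7 genes were checked for a library far from the rest, 28 groups of values in all, and chance alone flags about 1 in 20. In 3 of them the gap between 1 library and its nearest neighbour took up more of the group's range than Dixon's test allows. Cd74 in WT kainate replicate 4 was at 40.49 CPM, with a gap of 0.776 of the range against a critical value of 0.71 for 5 libraries. H2-DMb1 in EZH2nHom kainate replicate 4 was at 7.793 CPM, with a gap of 0.862, also above the critical value for its 4 libraries. H2-DMa in EZH2nHom saline replicate 5 was at 10.55 CPM, with a gap of 0.734 against 0.71.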

How the results depend on the processing

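Of the 7 genes, 6 passed for kainate against saline in WT, and this count was 3 with no filter on low counts, 3 at an adjusted p under 0.01, and 0 with structural RNA as a covariate, within shared code prefixes, without WT kainate replicates 3 and 4, or without the libraries above 1000 CPM of choroid plexus markers; over single libraries left out it ran from 3 to 6. The EZH2nHom count of 6 was 1 without those choroid plexus libraries and 5 to 7 over single libraries left out. The genotype count of 0 was 1 after saline with only the groups compared and 0 to 1 after kainate over single libraries left out; after kainate it was 3 without WT kainate replicates 3 and 4, picked for high levels, where Cd74 was 1.64, H2-Aa 1.91, H2-Eb1 1.69 and Ciita 1.58, all of turned sign. The replicate block gave 4 in WT, without Cd74 and H2-Eb1, and 6 in EZH2nHom, and changed no other call; genotypes are not paired. Signs turned as follows. H2-DMa was -0.088 for kainate in WT with structural RNA as covariate, and between the genotypes after saline -0.085 with the Y-linked covariate, -0.55 with structural RNA and -0.065 to 0.097 over left-out libraries. Between the genotypes after kainate, H2-DMa was -0.058 and H2-Ab1 -0.56 with structural RNA, H2-Ab1 -0.16 without the choroid plexus libraries and H2-Aa 0.15 with the Y-linked covariate; over left-out libraries Cd74 ran from -0.80 to 0.97, H2-Aa from -0.68 to 1.06, H2-Ab1 from -0.46 to 1.09, H2-Eb1 from -0.65 to 0.82 and Ciita from -0.62 to 0.53. For the difference of responses, without the choroid plexus libraries Cd74 was -0.28, H2-Eb1 -0.14, H2-DMa -0.088 and Ciita -0.24; over left-out libraries Cd74 ran from -0.21 to 1.56, H2-Aa from -0.0062 to 1.73, H2-Eb1 from -0.27 to 1.20 and H2-DMa from -0.046 to 0.24. The causes were not tested. For kainate against saline, 161 of 208 other values in WT and 186 of 194 in EZH2nHom kept direction and side of the threshold. Only the groups compared could not be run for the difference, which uses all groups. Depth limits Ciita most, with 11 reads in EZH2nHom saline.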
